A study of Mus musculus with 96 samples.

Results

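The 9 genes described here mark successive stages of the olfactory neuron lineage, and they were taken by symbol from a table of 55487 genes and 92 ERCC spike-in transcripts. Kit and Lgr5 mark globose basal cells (GBCs), Neurog1 and Neurod1 mark neuronal precursors, Gap43 and Gng8 mark immature olfactory sensory neurons (OSNs), and Gng13 and Omp mark mature OSNs. Lhx2 encodes a LIM homeodomain factor required for OSN development. All 9 symbols were found once. The genes were measured in 96 single cells, which are the daughter cells of 48 divisions of horizontal basal cells (HBCs), the reserve stem cells of the olfactory epithelium (OE). The HBCs came from wild-type mice that were 6 to 8 weeks old and had been injected with methimazole, a drug that injures the OE, 2 days before dissection. They were cultured on Tropoelastin and then on Fibronectin, which activates them, and each daughter cell was picked by mouth pipette with its sister noted. There was no second condition. The labels name no mouse or culture, so the cells form 1 sample and no test between groups could be made. Intervals cover counting error only, and those over cells treat sisters as independent. A cell is named here by its pair and its daughter number, so that 16-2 is daughter 2 of pair 16.

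In the OE, HBCs are normally quiescent and divide after injury to give rise to GBCs. Some GBCs switch on the basic helix-loop-helix factors Neurog1 and then Neurod1 before they leave the cell cycle, and their progeny become immature OSNs with growing axons and later mature OSNs that transduce odorants. The question put to the data was which daughter cells held transcripts of these genes, at what level, and whether sisters shared them.

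The cells were HBCs by their markers. Trp63, which encodes the HBC transcription factor p63, had between 37 and 27003 counts per cell with a median of 6999. The basal keratin genes Krt5 and Krt14 had lowest counts of 6760 and 691 and medians of 106400 and 135243. All 3 were counted in all 96 cells. The depth was 29454150 to 44849003 counts on genes per cell, and 11403 to 14632 genes were counted in each. No 2 cells had identical counts.

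The size of 1 count matters for genes this rare. The deposited count of a gene is its covered bases divided by 75 and rounded up: all 4081 ERCC values above 0 were within 1 count of this. Reads were 150 bases long and paired, so a read pair that aligned in full without overlap is worth 4 counts. A count of 1 to 4 therefore stands for at most the bases of 1 read pair, and amplified reads without molecular identifiers are not independent molecules. Counts are given as deposited. Levels are compared between cells as counts divided by an ERCC size factor, and between genes as TPM (a value scaled for gene length and library size).

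Of the 96 cells, 46 had at least 1 count of at least 1 of the 9 genes (47.9%, exact 95% interval 37.6 to 58.4%). Many of these counts were minute. Of the 864 combinations of gene and cell, 62 were above 0 (7.18%). The counts fell into separate ranges, since 38 were between 1 and 7 and 24 were between 13 and 2107. Of the 38 low values, 31 were 4 or less. At a minimum count of 10, 21 cells held at least 1 of the genes, and at a minimum count of 100, 17 cells did. The genes reached at most 0.00715% of a cell's counts.

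**Figure D1:**
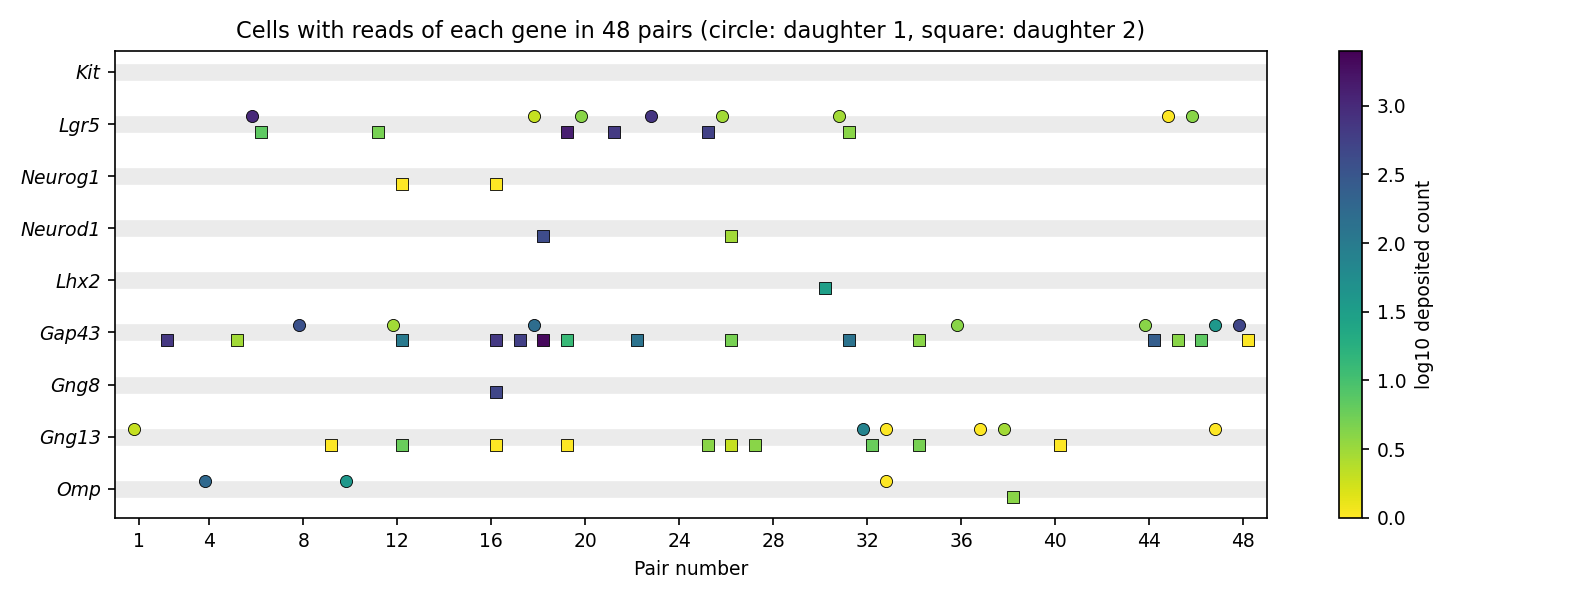
Deposited counts of the 9 genes (rows) in each of the 48 pairs (x axis, pair number). A circle is daughter 1, a square is daughter 2, colour is the log10 count, and cells at 0 are not drawn. Gap43, Lgr5 and Gng13 are spread over 18, 12 and 15 pairs, while Neurog1, Neurod1, Lhx2 and Gng8 appear in 1 or 2 pairs and Kit in none.

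At least 1 cell had a count for 8 of the 9 members (88.9%), against 59.3% of all genes in the table. A count of at least 10 in at least 1 cell was reached by 7 of 9 (77.8%), against 48.0% of all genes. Both comparisons ask for only 1 cell per gene. Per cell, the members were counted less often than genes at large. Of the combinations of member and cell, 7.18% were above 0, whereas the median number of genes counted per cell was 12865.5 of 55487. Gap43, the member counted most often, was reached or passed by 27.3% of all genes in the number of cells counted, Gng13 by 29.3% and Lgr5 by 30.2%. Omp was reached or passed by 40.2%.

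**Figure D2:**
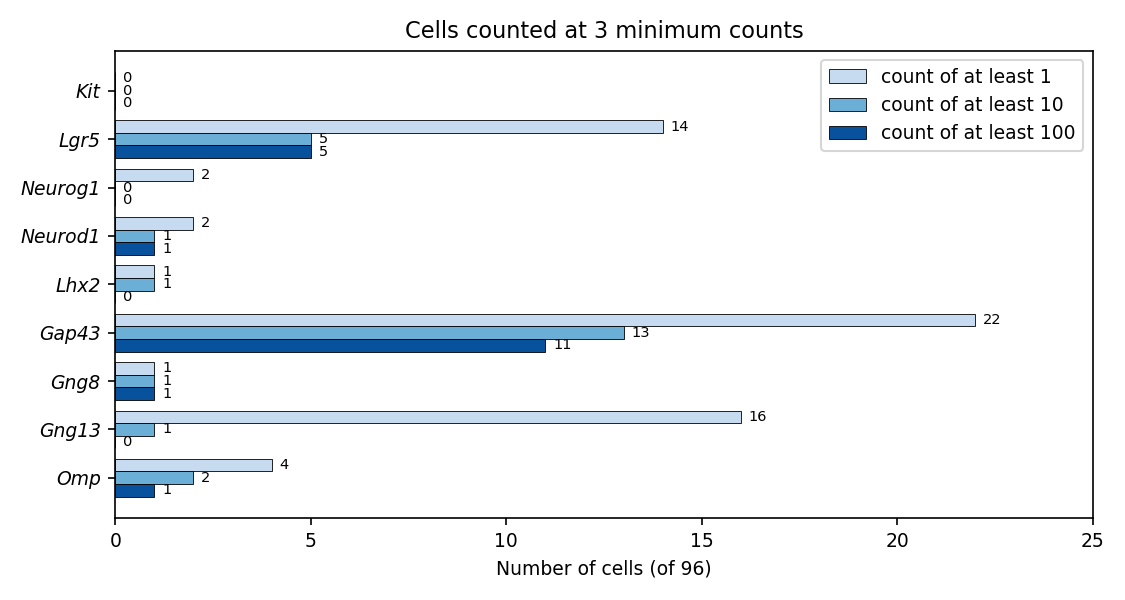
Number of the 96 cells (x axis) in which each gene had a deposited count of at least 1, 10 or 100 (light, middle and dark bars, with the number at each bar). Gng13 falls from 16 cells to 1 at a minimum of 10, whereas Gap43 keeps 13 of 22 and Lgr5 keeps 5 of 14.

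Among the GBC genes, Kit and Lgr5 differed. Kit encodes the receptor tyrosine kinase for stem cell factor and lies at chr5:75574916-75656722 of GRCm38. It had no count in any cell. For 0 of 96 cells, the share may be up to 3.125% by a limit of 3 cells, or 3.77% by the exact interval. Both limit the cells with a count, not the cells that held the transcript. Lgr5 encodes a receptor for R-spondins, which strengthen Wnt signalling, and lies on the minus strand at chr10:115450311-115587780. It was counted in 14 cells (14.6%, exact 95% interval 8.21 to 23.3%).

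The Lgr5 counts split into 5 cells with at least 100 counts and 9 cells with fewer than 10. The 5 cells were 19-2 with 1296 counts, 6-1 with 1027, 23-1 with 751, 21-2 with 668 and 25-2 with 546. Their ERCC-normalized counts were 1325.7, 906, 1379.5, 548 and 500, so that 23-1 rather than 19-2 was highest on that scale. In TPM they ranged from 5.03 in 25-2 to 17.3 in 6-1. The other 9 cells had 1 to 7 counts and at most 0.236 TPM. Lgr5 was counted in both sisters of pairs 6 and 31. In pair 6 the counts were 1027 and 7, and in pair 31 they were 3 and 4. The sisters of the other 4 cells with at least 100 counts had no count.

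Of the genes that work with Kit and Lgr5, some were counted in nearly all cells and others in almost none. Kitl, the ligand of Kit, was counted in 88 cells with a median of 1069 counts. Lgr4, the close relative of Lgr5, was counted in all 96, with a median of 1317. Znrf3 and Rnf43, which encode ubiquitin ligases that R-spondins hold in check, were counted in 92 and 77 cells. The R-spondin genes Rspo1 and Rspo4 and the third receptor gene Lgr6 were at 0, and Rspo2 and Rspo3 had 3 and 2 counts in 1 cell each. Of the 9 genes in this list, 4 had a count of at least 10 in 48 or more cells.

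The precursor genes Neurog1 and Neurod1 were almost absent. Neurog1, on the minus strand at chr13:56250478-56252163, had 1 count in 12-2 and 1 count in 16-2 and nothing elsewhere. Both values are within the bases of 1 read. Neurod1, on the minus strand at chr2:79452521-79456751, had 426 counts in 18-2 and 3 counts in 26-2. The higher value corresponded to 7.62 TPM and to 494 ERCC-normalized counts, and the sister 18-1 was at 0. Cerkl overlaps Neurod1 on the same strand, with 201 exonic bases shared, and was at 0 in both Neurod1 cells.

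Other factors of the neuronal precursor stage divided into broad and rare. Sox11 and Hes6, which are also expressed outside neurons, were counted in 92 and 87 cells, with medians of 948.5 and 1175 counts. Insm1, Nhlh2, Ebf2 and Ebf3 were counted in 1 cell each, with 6, 47, 2 and 1 counts. Nhlh1 and Ebf1 were at 0. In all, 6 of 8 genes of this list were counted and 2 had at least 10 counts in 48 or more cells.

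Lhx2 was counted in 1 cell. It lies at chr2:38339281-38369733, and 30-2 had 31 counts, or 0.553 TPM. Its sister 30-1 had none.

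Gap43, which encodes a growth cone protein used as the classical marker of immature OSNs and also expressed by glia, was the most widely counted member. It lies on the minus strand at chr16:42248442-42340651, and the 1 gene that overlaps it, Mir6540, had no counts. Gap43 was counted in 22 cells (22.9%, exact 95% interval 15.0 to 32.6%), and 13 cells had at least 10 counts (13.5%, interval 7.41 to 22.0%). The highest count was 2107 in 18-2. Next came 2-2 with 716, 16-2 with 685, 17-2 with 570, 48-1 with 489 and 8-1 with 360. Counts of 249, 156, 128, 128 and 102 were found in 44-2, 18-1, 22-2, 31-2 and 12-2, and 47-1 and 19-2 had 39 and 13. The other 9 cells had 1 to 7 counts. Apart from 18-2, the cells with at least 10 counts were spread between 13 and 716.

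ERCC scaling changed the order of the Gap43 cells little. After it, 18-2 had 2442.6, 16-2 had 852, 17-2 had 552 and 2-2 had 543 normalized counts. Of these, 2-2 fell from the second to the fourth place. In TPM the 13 cells ranged from 0.409 to 72.5.

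Gap43 was counted in 18 pairs, in both sisters of 4 pairs (22.2%) and in 1 sister of 14. Over the 3440 genes counted in 10 to 25 cells, the median share of counted pairs with both sisters was 10.0% and the quartiles were 5.0 and 16.7%. Gap43, at 22 cells, is near the top of that range, so these values are not matched to its number of cells. Pair 18 was the 1 pair in which both sisters had at least 10 counts, with 2107 and 156. After ERCC scaling these were 2442.6 and 197, a difference of 3.63 on the log2(normalized count + 1) scale. In pairs 12, 44 and 48 the counts were 102 and 3, 249 and 4, and 489 and 1. In each of these 3 pairs the lower sister had no more than the bases of 1 read pair. In the other 8 pairs with at least 10 counts in a cell, the sister had none.

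Of 10 other genes of immature neurons, 3 were counted in more cells than Gap43 and 7 in fewer. Tubb3, the neuronal beta-tubulin gene, was counted in 81 cells with a median of 80 counts and a highest count of 8641. Ncam1, a neural adhesion molecule, was counted in 71 and Dpysl3, a collapsin response mediator, in 56. Dpysl5 was counted in 14. Stmn2, Stmn4 and Crmp1, which mark postmitotic neurons, were at 0 in all cells. In this list 7 of 10 genes were counted, and Tubb3 and Ncam1 had at least 10 counts in 48 or more cells.

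By Spearman correlation over the 96 cells, the genes whose ERCC-normalized counts ran most like those of Gap43 were Hmgb1-ps1 (rho = 0.52), Agap3 (rho = 0.42) and Gm5866 (rho = 0.42), of 14462 genes compared. These are descriptions over cells that share 1 sequencing run and size factors, and 74 of the 96 Gap43 values were tied at 0. Hmgb1-ps1 is named as a pseudogene, never rose above 68 counts, and its reads may belong to its parent gene. None of the genes of the neuronal lists was among these 3.

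Gng8, the G protein gamma subunit of immature OSNs and vomeronasal neurons, was counted in 1 cell. It lies at chr7:16891786-16895436 and overlaps no other gene in the files. Cell 16-2 had 490 counts, or 610 after ERCC scaling and 37.4 TPM. Its sister 16-1 had none. On the TPM scale this was the second highest value among the members, below Gap43 in 18-2.

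Gng13 and Omp, genes of mature OSNs, were found in different cells from one another except for 33-1, where each had 1 count. Gng13 encodes the gamma subunit that pairs with the olfactory G protein and lies at chr17:25717171-25719406. It was counted in 16 cells (16.7%, exact 95% interval 9.84 to 25.6%), but 32-1 with 76 counts was the 1 cell above 6. Its sister 32-2 had 6. Cell 12-2 also had 6, 34-2 had 5, 25-2 and 27-2 had 4, and 38-1 had 3. Cells 1-1 and 26-2 had 2, and the other 7 had 1.

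The 3′ end of Gng13 overlaps Chtf18, which encodes a clamp loader subunit used in DNA replication and is transcribed from the opposite strand. They share 481 bases of span and 399 exonic bases. Chtf18 was counted in 81 cells with a median of 736 counts, and in all 16 Gng13 cells, with 12 to 7923 counts. The libraries were made with a kit that does not mark strand, so reads from the shared bases cannot be told apart between these genes. In 32-1, Chtf18 had 872 counts.

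Omp encodes the olfactory marker protein of mature OSNs and lies on the minus strand at chr7:98143359-98145502. It was counted in 4 cells, with 179 counts in 4-1, 39 in 10-1, 4 in 38-2 and 1 in 33-1. These corresponded to at most 3.01 TPM, and all 4 sisters were at 0. Omp lies within the span of Capn5, a calpain gene on the same strand, without shared exonic bases. Capn5 had 590 counts in 4-1 and 3504 in 38-2, and none in 10-1 and 33-1.

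The odorant transduction list, which also holds receptor and glutamate transporter genes, was unevenly counted. Adcy3, an adenylate cyclase of odorant transduction, was counted in 81 cells with a median of 465.5 counts, and Gnal, the olfactory G protein alpha subunit, in 30. Adcy3, like Tubb3, Ncam1 and Dpysl3, was counted in most cells. All cells held the HBC markers. These broad counts are not read here as signs of neurons, and what they stand for was not tested. Ano2, a calcium-activated chloride channel, was counted in 8 cells and Slc17a6, a vesicular glutamate transporter, in 3. The channel subunit genes Cnga2 and Cnga4, the receptor transporters Rtp1 and Rtp2, and Stoml3, Gfy and Kirrel2 were at 0. Cngb1, a further subunit of the same channel, had 386 counts, or 7.22 TPM, in 28-1 and none elsewhere. In all, 5 of 12 genes were counted. Among the other gamma subunit genes, Gng5 and Gng12 were counted in all 96 cells, Gng10 in 90 and Gng3 in 25.

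**Figure D3:**
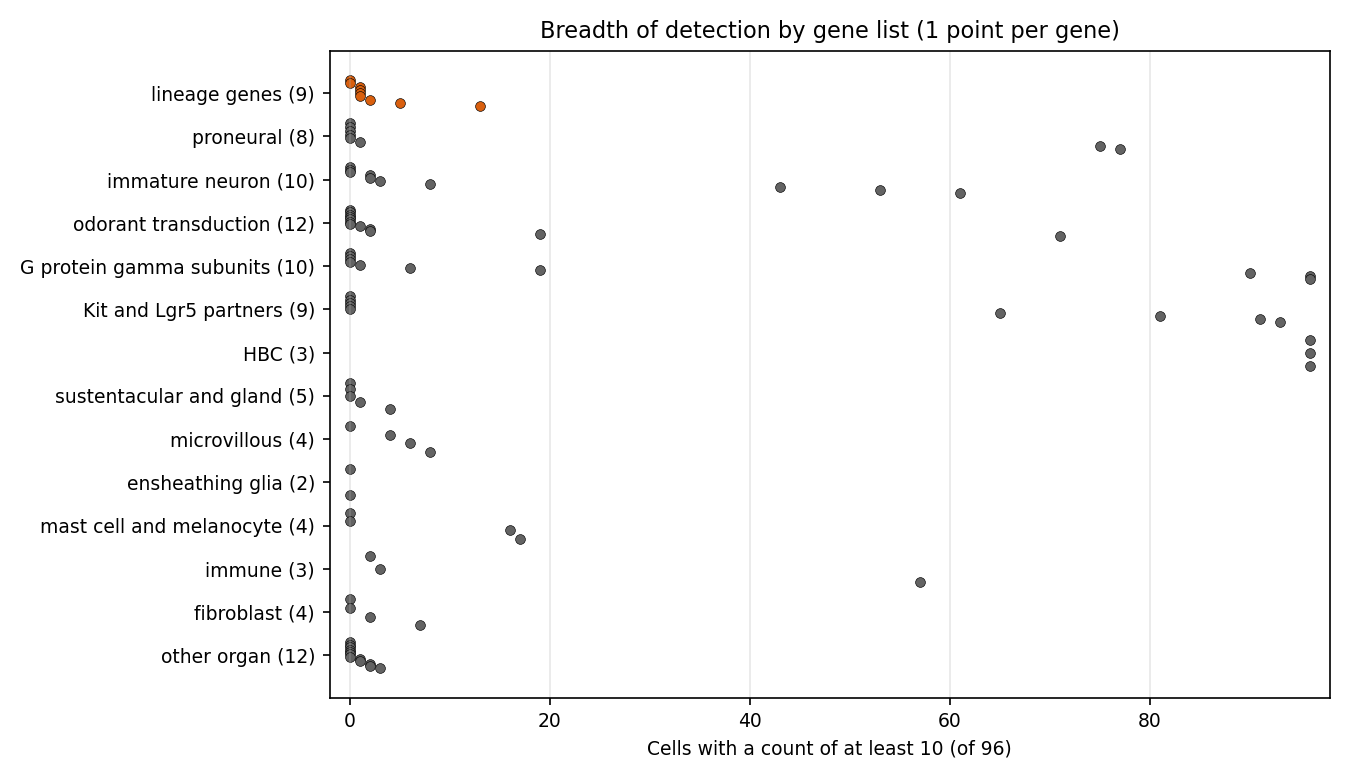
Number of the 96 cells with a deposited count of at least 10 (x axis) for each gene of the 9 lineage genes (orange) and of the other gene lists (grey), 1 point per gene, with the size of each list in brackets. The lineage genes lie between 0 and 13 cells, the 3 HBC markers at 96, and Sox11 and Hes6 at 77 and 75.

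One member was counted in 35 cells, 2 in 7 cells, 3 in 3 cells and 4 in 1 cell, and 50 cells had none. At least 2 members were thus found in 11 cells (11.5%, exact 95% interval 5.86 to 19.6%). With at least 10 counts of each, 3 cells remained, which were 16-2, 18-2 and 19-2.

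Cell 16-2 combined both immature OSN genes, with 685 counts of Gap43 and 490 of Gng8. It had 1 count each of Neurog1 and Gng13, and Chtf18, whose reads can fall on Gng13, had 4257. It also had 66 counts of Slc17a6, 599 of Dpysl5 and 1444 of Dpysl3, where its sister 16-1 had 0, 0 and 4. Ncam1, Sox11 and Hes6 ran the other way, with 12, 713 and 514 counts in 16-2 and 3880, 2061 and 962 in 16-1. Tubb3 was high in both, with 6643 and 3722, and Adcy3 had 6704 and 3253. All other reported genes of the precursor, immature neuron and odorant transduction lists were at 0 in 16-2. The HBC markers were present in 16-2, with 1120 counts of Trp63, 141295 of Krt5 and 210214 of Krt14. It also had 20076 counts of Mki67, the proliferation gene, whose median over the 96 cells was 16647.5.

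Cell 18-2 combined the highest Gap43 value with the 1 Neurod1 value of at least 10 counts. It had 2107 counts of Gap43 and 426 of Neurod1. Its sister 18-1 had 156 counts of Gap43, none of Neurod1 and 2 of Lgr5. Dpysl3 was lower in 18-2, with 5 counts against 1416 in 18-1, and Tubb3 was counted in both, with 1604 and 3929. Ncam1 and Sox11 were also lower in 18-2, with 202 and 5531 counts against 791 and 7435. Hes6 was higher, with 2543 against 1511, and Adcy3 had 2115 and 2004. Ano2 had 2 counts in 18-2. All other reported genes of the precursor, immature neuron and odorant transduction lists were at 0 in 18-2. The HBC markers Trp63, Krt5 and Krt14 had 10185, 61342 and 127609 counts in 18-2, and Mki67 had 16614.

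Cell 19-2 had 1296 counts of Lgr5, 13 of Gap43 and 1 of Gng13. It also had 1367 counts of Ano2, the highest value of that gene in any cell. Its sister 19-1 had none of these 4 genes. Adcy3 had 2728 counts in 19-2 and 402 in 19-1, while Hes6 had 1860 and 3675. Tubb3, Sox11 and Ncam1 had 5, 7 and 5 counts in 19-2. Gnal had 15 and Dcx, of the immature neuron list, had 28. All other reported genes of the precursor, immature neuron and odorant transduction lists were at 0 in 19-2. Krt14 was low in 19-2, with 7327 counts, and Mki67 had 76584. Outside these 3 cells, 12-2 combined 102 counts of Gap43 with 6 of Gng13 and 1 of Neurog1. Cell 26-2 combined 5 counts of Gap43 with 3 of Neurod1 and 2 of Gng13.

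Any member was counted in at least 1 cell of 35 pairs, and 13 pairs had none. In 11 pairs both sisters had a member, and in 7 pairs (14.6%, exact 95% interval 6.07 to 27.8%) both had the same one. These were pairs 6 and 31 for Lgr5, pairs 12, 18, 44 and 48 for Gap43, and pair 32 for Gng13. Of the 6 members counted in at least 2 cells, 3 were counted in both sisters of a pair, against 68.1% of all genes counted in at least 2 cells, most of which were counted in more cells. Over genes counted in 10 to 25 cells, the median share of counted pairs with both sisters was 10.0%, with quartiles of 5.0 and 16.7%. The share was 22.2% for Gap43, 16.7% for Lgr5 and 6.67% for Gng13. A gene counted in more cells has more room for shared pairs, and Gap43, at 22 cells, is near the top of this range. The quartiles are therefore not matched to Gap43.

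At a minimum count of 10 the sharing was confined to pair 18. There were 23 combinations of member and pair in which at least 1 sister reached 10 counts, in 20 pairs. The other sister had no count in 17 of them, 1 to 7 counts in 5, and at least 10 in 1. Of the 24 values of at least 10, 9 were in daughters numbered 1 and 15 in daughters numbered 2. What the numbers stand for is not stated in the labels.

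**Figure D4:**
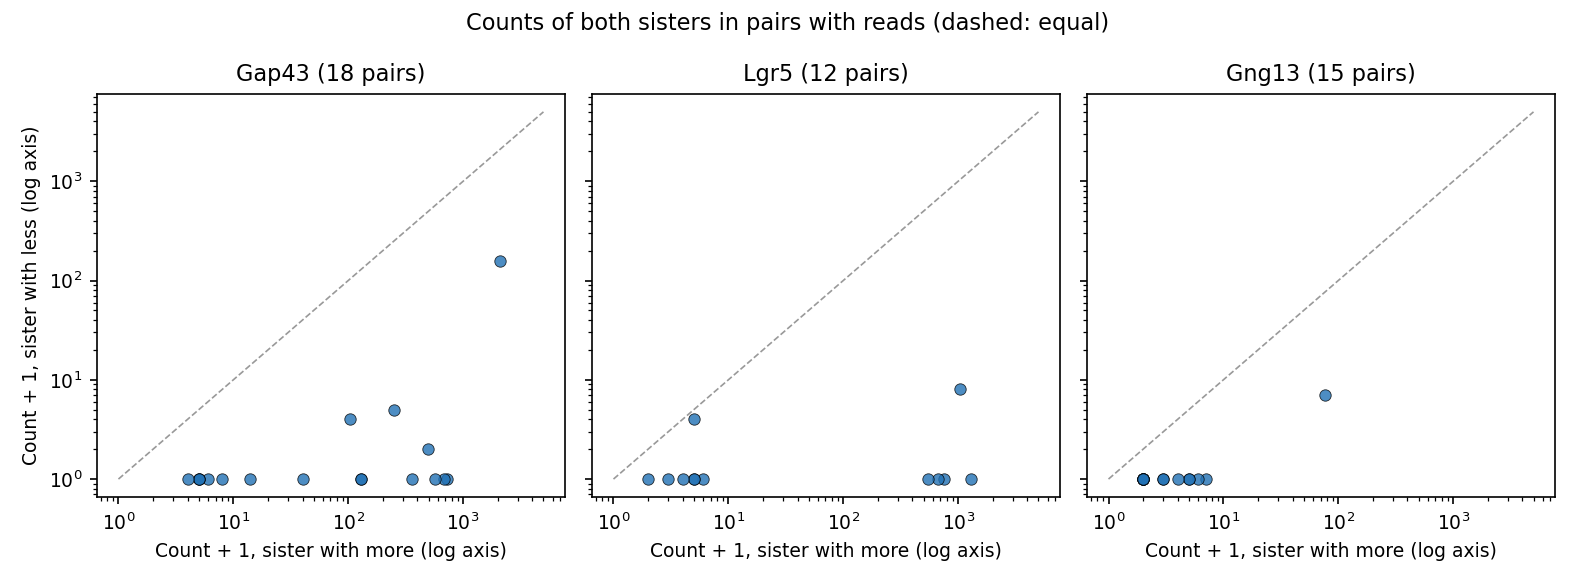
Counts of both sisters in every pair with reads of Gap43, Lgr5 or Gng13, as count + 1 on log axes, with the sister that had more on the x axis and the sister that had less on the y axis. The dashed line is equality. Most points lie on the floor, where the other sister had no count, and in pair 18 both sisters had at least 10 counts of Gap43 (2107 and 156).

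Some low counts stood beside high ones. In 5 of the 38 values from 1 to 7 counts, the sister had at least 10 counts of the same gene. In 11 some cell of the same set of 8 did. Of the 12 sets, 9 held a cell with at least 10 counts of Gap43 and 4 one of Lgr5. For Omp 2 sets did, and for Gng13 and Neurod1 1 each. The number expected if low and high values were unlinked was not computed, so the 11 are not read as a pattern. The sets are those in the names of the deposited files, and the sources used here do not say whether each was handled together. The part of reads passing between libraries in these low counts was not tested.

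Member values of at least 10 counts lay within the TPM range of rare spike-in transcripts with at least 10 counts. The same minimum count was set on both sides and bounds their lower ends. Lying within this wide range is therefore not read as a result. The 33 ERCC transcripts counted in 1 to 25 cells gave 156 values of at least 10 counts, with a median of 20.1 TPM and 10th and 90th percentiles of 2.58 and 48.2. The 24 member values of at least 10 counts had a median of 7.29 TPM and ranged from 0.409 to 72.5. Of these, 20 were at or below the ERCC median, and 1, Gap43 in 18-2, was above the 90th percentile. The 38 lower member values were between 0.0023 and 0.339 TPM. ERCC transcripts of 274 to 2022 bases were compared, whereas the exons of the members cover 773 (Gng13) to 10264 bases (Lgr5).

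**Figure D5:**
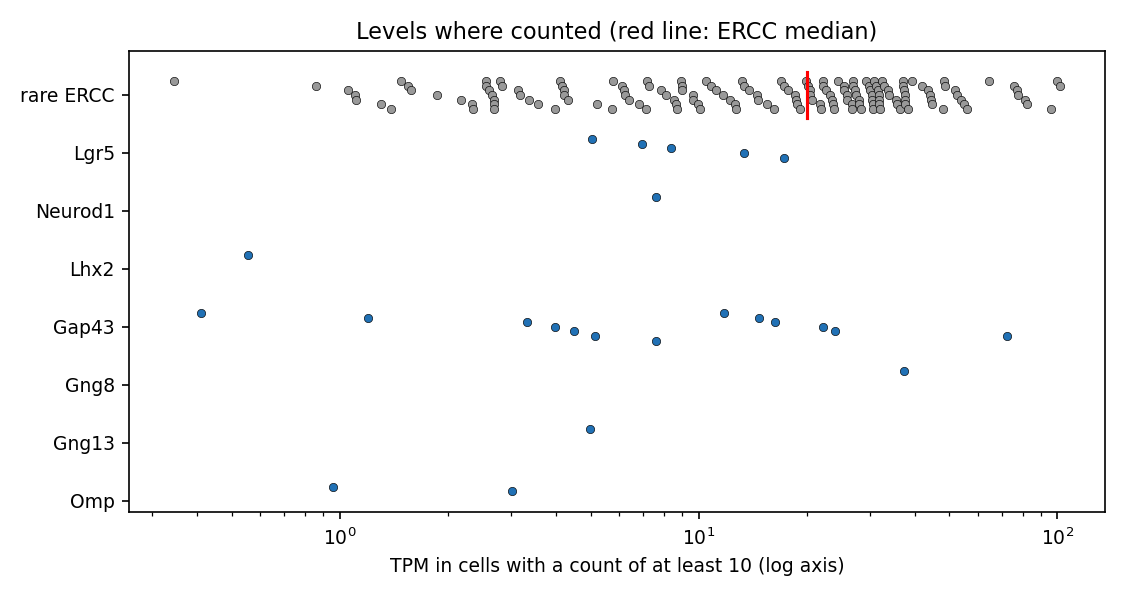
TPM (x axis, log scale) of every value with at least 10 counts for the ERCC transcripts counted in 1 to 25 cells (grey, red line at their median of 20.1 TPM) and for the members (blue). The member values lie between 0.409 and 72.5 TPM, within the ERCC range of 0.344 to 102.

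Marker genes of other organs were set beside the members. Of 12 such genes 7 were counted, among them Pomc and Gfap in 4 cells each and Myh6 and Prm1 in 3 each. Of their 1152 combinations with cells, 9 reached 10 counts (0.781%), with a highest count of 754 for Pomc. Gfap is also a gene of ensheathing glia, and without it 6 of 1056 combinations reached 10 counts (0.568%). The 9 members reached it in 24 of 864 combinations (2.78%). Gap43 and Lgr5 made up 18 of these, and the other 7 members reached it in 6 of 672 (0.893%). This split was chosen after the values were seen.

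Markers of other cells that the OE holds were also unevenly spread. Of the ensheathing glia genes, of which not all are reported here, Sox10 and Fabp7 were at 0 in all cells. Of the mast cell and melanocyte genes, Cpa3 and Fcer1a were at 0, Dct and Pmel were counted in 63 and 24 cells, and the sum ran from 0 to 1525. Sustentacular and gland genes were counted for 2 of 5, with sums of 0 to 361, and Cyp1a2, Ermn and Sec14l3 were at 0. Microvillous cell genes were counted for 3 of 4, with sums of 0 to 664, and Foxi1 was at 0. Immune genes were counted for 3 of 3, led by Cd68 in 74 cells, with sums of 0 to 11064. Fibroblast genes were counted for 3 of 4, led by Pdgfra in 15 cells, with sums of 0 to 2132, and Dcn was at 0. The 1 cell with Cyp2g1, a sustentacular cell gene, was 26-2, which had 361 counts of it beside its low counts of Gap43, Neurod1 and Gng13. The part of such cells in the member counts was not tested.

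The number of members counted per cell had a Spearman correlation over the 96 cells of 0.21 with the number of genes counted and 0.09 with total counts. Each set of 8 cells had 1 to 7 cells with a member and 0 to 4 cells with at least 10 counts of one.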

How the data were processed

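RNA of 96 single cells was captured on oligo-dT beads after ERCC transcripts had been added, following G&T-seq, and was amplified by PCR before Nextera XT library preparation. The authors trimmed reads with Trimmomatic 0.39, aligned them with STAR 2.7.11a to GRCm38 with Ensembl release 100 and ERCC sequences, and ran StringTie 2.2.1. They deposited a table of counts per gene, not normalized, and for each cell a table of TPM, FPKM and coverage. The deposited counts are covered bases divided by 75, rounded up. The deposited FPKM values were not used, and the deposited coverage served only to check this unit and the deposited TPM to compare levels between genes.

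Counts were read with Python 3.11.15 (numpy 2.4.6, scipy 1.17.1, pandas 2.3.3, matplotlib 3.10.9). A gene was called counted at 1 or more. Size factors were medians of ratios, taken from 22 ERCC transcripts that had counts in each cell, and log2 ratios used a pseudocount of 1. Shares have exact Clopper-Pearson 95% intervals, and a gene counted in 0 cells was also given a limit of 3 cells. Exon overlaps came from GENCODE mouse release 21, whose gene spans equal those of the files for all 9 members. The ranking of genes by likeness to Gap43 used genes with at least 10 counts in 10% of cells. Its code was run on simulated data whose profile held no zeros. The Gap43 values are mostly tied at 0, so that run does not show how well the ranking works for Gap43. No tests between groups were made, since the cells form 1 sample.

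The 9 genes and the gene lists were chosen with earlier results of these data known. The genes named are the members, up to 4 genes counted in most cells from each list and list genes at 0, overlapping genes, and the 3 genes most like a member that had at least 10 counts in 10 cells. Rspo2, Rspo3, Insm1, Nhlh2, Ebf2, Ebf3, Dcx, Cngb1 and Cyp2g1 were named after their values were seen. Some genes of the proneural and glia lists are not reported here, and the list counts leave them out.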

Additional observations from a re-analysis of the deposited data

How the results depend on the processing

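The minimum count decided most numbers. Cells with any member fell from 46 to 27 at a minimum count of 5, 21 at 10, 17 at 100 and 19 at a TPM of at least 1. Cells with 2 or more members fell from 11 to 4, 3, 2 and 2 in the same order, and pairs with a member in both daughter cells from 7 to 3, 1, 1 and 1. With Kit, Neurog1 and Gng8 alone, whose spans overlap no other gene, the 3 numbers were 2, 1 and 0. This setting also drops Gap43, Lgr5 and Lhx2, although the genes over their spans had no counts and share no exonic bases with them. The fall therefore does not measure the part of overlapping genes in the counts, which was not tested. Without Gng13, cells with 2 or more members numbered 7, and without Gap43 they numbered 6 and pairs with sharing 3. The minimum of 5 and the removal of Gng13, Gap43 or Gfap were chosen after seeing the data. Leaving out each set of 8 cells in turn gave 39 to 45 cells with any member, 8 to 11 with 2 or more and 5 to 7 pairs. The direction in pair 18 held under all 4 scalings, with 3.63 by ERCC ratios, 3.68 by ERCC total, 3.82 by library total and 3.58 by TPM, on the log2 scale. The cells come from an unstated number of mice and cultures, so the shares do not describe the variation between animals. Counts of 1 to 4 cover at most the bases of 1 full read pair, and depth is no guard against a transcript that was not captured.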

Other observations

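Outside the neuronal lineage, Dct, a melanin synthesis gene, was also counted mostly at low values. It was counted in 63 cells with a median of 2 counts, 17 cells had at least 10, and both sisters were counted in 23 pairs. Cftr, a chloride channel of microvillous ionocytes, was counted in 12 cells with a highest count of 664 in 40-2, and both sisters were counted in 3 of 9 pairs. Il33, listed with the sustentacular genes and also made by basal epithelia, was counted in 7 cells, with both sisters in 2 of 5 pairs. Pdgfra was counted in 15 cells of 15 pairs, and in no pair in both sisters.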
